A study of Homalium kanaliense and Homalium betulifolium with 6 samples.

Results

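Leaf transcripts that kept nearly the same abundance in 6 wild trees of 2 Homalium species are described here. They are the 200 contigs, or assembled transcript sequences, with the smallest ratio of the highest to the lowest abundance over the 6 plants. They were taken from the 8654 contigs that averaged at least 20 CPM (read counts scaled to a common library size) and had at least 10 reads in every plant, out of 52634 contigs in all (0.380%). The CPM values that chose the 200 contigs are the ones described below, so no difference between plants or species in them is a test of their steadiness. The contigs carry numbers only, and since none of the 52634 has a gene name in the files, no function is given for any of them. The label of leaf tissue was not checked against marker genes for the same reason, and several contigs may belong to 1 gene.

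The plants were 3 of Homalium kanaliense, labelled as a nickel hyperaccumulator, and 3 of Homalium betulifolium, labelled as not accumulating nickel, all from serpentine soil in New Caledonia with no age or applied treatment in the labels. Leaves of H. kanaliense came from Yate in month 6 and those of H. betulifolium from La Tontouta in month 9 of the same year, 1 plant per polyA library, so that species, site and collection date cannot be told apart. Reads of both species were counted on a transcriptome of H. kanaliense that was assembled from the reads of a single plant, which limits H. betulifolium to what matches that reference. The 2 species were compared to find leaf transcripts that differ between an accumulating and a non-accumulating tree, and steady transcripts are the counterpart of that comparison.

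Nickel hyperaccumulators take up the metal from ultramafic soils and store it in leaf tissue, and comparisons with related non-accumulating species are used to look for the transport and chelation genes involved. Such comparisons need a scale on which 2 leaves can be set side by side. In quantitative PCR that scale comes from reference transcripts, in plants often those of actins, ubiquitins, elongation factors or the regulatory subunit of protein phosphatase 2A, chosen because their level moves little between samples. In sequencing it comes from the bulk of transcripts, as in the trimmed mean of M values (TMM), which assumes that most of them do not differ.

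The libraries held 37057687 to 56616000 reads. TMM factors, which multiply the library totals before CPM are computed, were 1.24, 1.14 and 1.26 in H. kanaliense plants 1, 2 and 3 and 0.546, 0.918 and 1.12 in H. betulifolium plants 1, 2 and 3. H. betulifolium plant 1 had the factor farthest from 1, and the spread, overlap and choice of contigs are therefore also given without it, an addition made after the data were seen. In bulk leaves, fewer cells of a type and less RNA per cell cannot be told apart.

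The 200 contigs spanned a narrow range. Their ratio of highest to lowest CPM ran from 1.08 to 1.41 with a median of 1.34, against a median of 3.35 over all 8654 contigs above the floors (lower and upper quartiles 2.18 and 6.34). In 18 of the 200 the ratio was under 1.2, and in 69 it was under 1.3. Among the 8654 contigs, 352 (4.07%) stayed under 1.5, 1690 (19.5%) stayed under 2, and 1419 (16.4%) exceeded 10. The limit of the list fell inside a continuous distribution. The last contigs inside, Hkan_v1_contig_1288 and Hkan_v1_contig_6996, both had a ratio of 1.4055, and the first outside, Hkan_v1_contig_9990 and Hkan_v1_contig_3478, had 1.4060 and 1.4067.

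**Figure D1:**
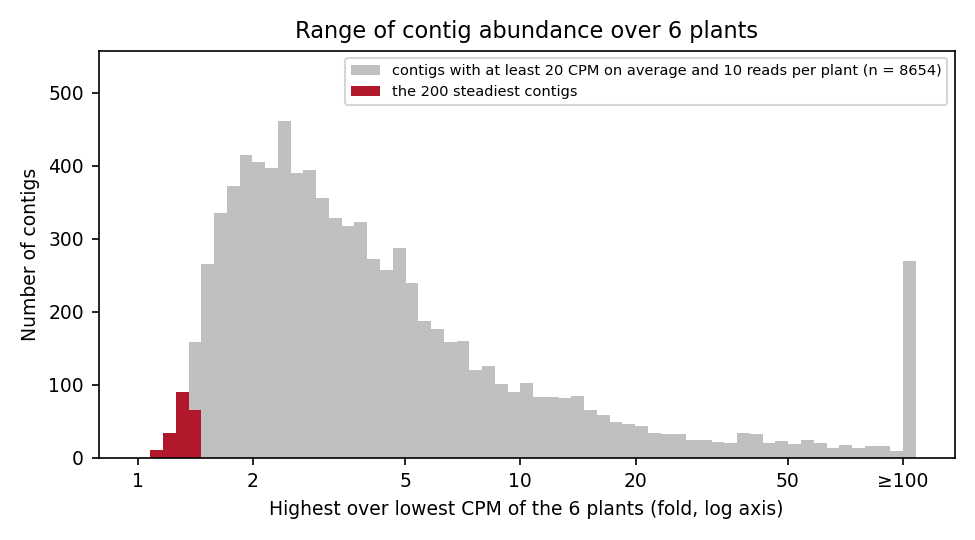
Number of contigs by the ratio of the highest to the lowest CPM over the 6 plants (log axis) for all 8654 contigs above the floors (grey) and the 200 steadiest (red, drawn over the grey). The last bar holds every ratio of 100 or more, and the 200 contigs lie at the left edge, between 1.08 and 1.41.

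The steadiest contig of all, Hkan_v1_contig_11697, lay at 30.1, 30.4 and 29.6 CPM in H. kanaliense plants 1 to 3 and at 29.9, 28.0 and 29.7 CPM in H. betulifolium plants 1 to 3. The species overlapped, and only H. betulifolium plant 2 fell below 29 CPM. These values rested on 924 to 1775 reads per plant. The coefficient of variation over the 6 plants was 2.77%, and counting error alone, taken as independent reads, gives 2.78% at these read numbers. Whether the reads of a pair were counted separately is not given in the sources used here, and if they were, counting error is larger.

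The next 5 contigs in the order of the ratio were nearly as level. Hkan_v1_contig_14934 was at 24.2, 23.2 and 22.7 CPM in H. kanaliense and 21.8, 23.3 and 22.5 CPM in H. betulifolium, a ratio of 1.11. Its species overlapped, with the lowest value in H. betulifolium plant 1. Hkan_v1_contig_10735 was at 35.3, 33.7 and 34.8 CPM against 33.6, 31.6 and 33.8 CPM, with a ratio of 1.12. It was lowest in H. betulifolium plant 2, and the species again overlapped. Hkan_v1_contig_8082 was at 36.5, 35.9 and 38.5 CPM in H. kanaliense and 35.4, 40.0 and 38.1 CPM in H. betulifolium. Both its extremes lay in H. betulifolium, in plants 1 and 2.

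Hkan_v1_contig_6140 was at 22.3, 20.9 and 21.4 CPM in H. kanaliense and at 22.1, 21.1 and 23.8 CPM in H. betulifolium. H. betulifolium plant 3 was its highest plant and H. kanaliense plant 2 its lowest. Hkan_v1_contig_13875 was the most abundant of the 6, at 83.2, 87.8 and 76.8 CPM in H. kanaliense against 86.5, 85.6 and 84.9 CPM in H. betulifolium. In this contig the H. betulifolium plants lay within 1.02-fold of one another and inside the range of the H. kanaliense plants.

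Ratios between 2 contigs within a plant need no library scaling, because both are counted in the same library. Over the 15 pairs of these 6 contigs, the ratio of their reads moved by 1.06-fold to 1.22-fold between the lowest and the highest plant. For the pair Hkan_v1_contig_11697 and Hkan_v1_contig_10735, which changed least, the reads of the first over the second were 0.851 in the lowest plant and 0.902 in the highest. The contigs were chosen on the same reads, so this describes how level they were against one another and tests nothing.

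**Figure D2:**
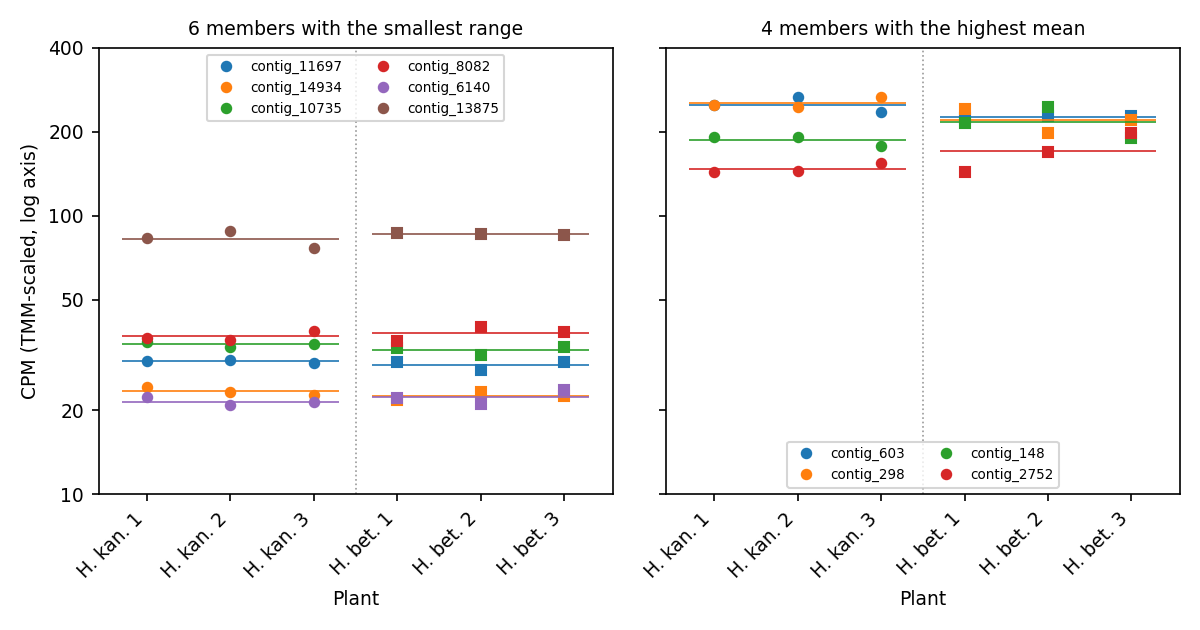
CPM (TMM-scaled, log axis) in each of the 6 plants for the 6 contigs with the smallest ratio (left) and the 4 most abundant of the 200 (right). Circles are H. kanaliense plants, squares H. betulifolium plants, and short lines the means of each species. The left contigs stay within 1.14-fold over the plants and the right ones within 1.39-fold.

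Above the floor of 20 CPM, which the rule sets, the steady contigs were of moderate abundance. A list of 200 chosen with a floor of 10 CPM shared 134 with this list. The mean of the 200 ran from 20.1 to 238 CPM, with a median of 37.5 CPM, against a median of 44.4 and a highest value of 17312 CPM among the 8654. Of 2343 contigs between 20 and 30 CPM, 57 (2.43%) were among the 200, as were 89 of 2471 (3.6%) between 30 and 50 CPM and 44 of 2138 (2.06%) between 50 and 100 CPM. Above that the share was smaller, with 7 of 1023 (0.684%) between 100 and 200 CPM and 3 of 679 (0.442%) at 200 CPM or more. The median ratio rose along the same classes, from 2.86 at 20 to 30 CPM to 7.25 at 200 CPM or more. Among the 1000 most abundant contigs by mean CPM, 980 stood above the floors and 4 belonged to the 200.

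Those 4 contigs were among the most precisely counted of the list. Hkan_v1_contig_603 was at 249, 266 and 235 CPM in H. kanaliense and 223, 227 and 227 CPM in H. betulifolium, from 6907 to 15536 reads per plant. Every H. kanaliense plant lay above every H. betulifolium plant, and the means were 250.1 ± 15.4 CPM (SD, n = 3) and 226 ± 2.24 CPM (SD, n = 3). Hkan_v1_contig_298 was at 250.1, 246 and 266 CPM in H. kanaliense against 240.3, 198 and 221 CPM in H. betulifolium. Its species did not overlap either, and its lowest plant was H. betulifolium plant 2.

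Hkan_v1_contig_148 was at 191, 191 and 178 CPM in H. kanaliense and 216, 245 and 190 CPM in H. betulifolium, with the species overlapping. Hkan_v1_contig_2752 was at 143, 145 and 154 CPM in H. kanaliense and 143, 170 and 198 CPM in H. betulifolium. In both of these contigs the 3 H. kanaliense plants lay close together and the H. betulifolium plants spread more widely.

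For most of the 200 contigs the spread between plants exceeded counting error. The lowest count of any of the 200 contigs in any plant was 506 reads, and all 200 also passed a floor of 100 reads in each plant. Their median coefficient of variation was 11.0%, and the median counting error was 2.48%. The spread of a contig over its own counting error had a median of 4.34 and ran from 0.996 to 11.6. In 8 of the 200 the coefficient of variation was under 2 times the counting error, and these were also the only 8 among the 8654 contigs.

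Within a species the 200 contigs were level as well, which a ratio of at most 1.41 over the 6 plants fixes. That limit also bounds their standard deviations within each species. The ratio of highest to lowest CPM over the 3 H. kanaliense plants had a median of 1.16 (highest 1.38), against 1.39 over all 8654 contigs. Over the 3 H. betulifolium plants it had a median of 1.23 (highest 1.41), against 2.67. The median standard deviation of log2 CPM over the H. kanaliense plants was 0.11 for the 200 contigs and 0.25 for all 8654, and over the H. betulifolium plants it was 0.16 and 0.74. The H. betulifolium plants spread more widely than the H. kanaliense plants in 133 of the 200 (66.5%), against 7660 of the 8654 (88.5%). With upper-quartile scaling 170 of the 200 were wider in H. betulifolium, and with library totals all 200 were. The count with library totals largely restates the TMM factors, 0.546 to 1.12 in H. betulifolium and 1.14 to 1.26 in H. kanaliense. Without H. betulifolium plant 1 the H. betulifolium medians were 0.13 for the 200 and 0.54 for all 8654, and H. betulifolium was the wider species in 103 (51.5%) and 6391 (73.9%). These values rest on 2 H. betulifolium plants against 3 of H. kanaliense. A standard deviation over 2 values tends to be smaller, so they cannot be set evenly against those from all plants.

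The contrast between the species' spreads ran both ways among the 200. Hkan_v1_contig_19337 was at 35.5, 36.9 and 36.8 CPM in H. kanaliense and 48.1, 34.5 and 43.3 CPM in H. betulifolium. Hkan_v1_contig_6549 was at 41.6, 39.9 and 42.2 CPM against 52.2, 48.2 and 37.6 CPM. In these contigs the H. kanaliense plants were level and the H. betulifolium plants carried both extremes. Hkan_v1_contig_4827 showed the reverse, at 72.9, 53.7 and 69.9 CPM in H. kanaliense and 62.7, 61.8 and 60.4 CPM in H. betulifolium. Hkan_v1_contig_2125 was at 44.7, 33.3 and 35.3 CPM in H. kanaliense and 40.3, 43.0 and 41.5 CPM in H. betulifolium. In the last pair H. kanaliense plant 1 was the highest plant and plant 2 the lowest.

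No plant held the extremes of the 200 contigs alone. The highest value lay in an H. kanaliense plant in 65 contigs and in an H. betulifolium plant in 135. By plant it lay in 35, 13 and 17 contigs for H. kanaliense plants 1, 2 and 3 and in 47, 39 and 49 for H. betulifolium plants 1, 2 and 3. The lowest value lay most often in H. kanaliense plant 2 (58 contigs) and H. betulifolium plant 2 (44 contigs). Among all 8654 contigs the extremes were less evenly placed, with H. betulifolium plant 1 the highest in 4236 (48.9%) and H. betulifolium plant 2 the lowest in 2482 (28.7%). Both extremes lay in H. betulifolium in 45 of the 200 (22.5%) and in 3660 of the 8654 (42.3%), and both in H. kanaliense in 16 (8%) and 159 (1.84%).

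The deviation of each plant from a contig's mean over the 6 plants shows the same in levels. For the 200 contigs the median deviation of log2 CPM was 0.029, -0.074 and -0.011 in H. kanaliense plants 1, 2 and 3 and 0.041, 0.013 and 0.028 in H. betulifolium plants 1, 2 and 3. H. kanaliense plant 2 was thus the lowest, by a small amount. For all 8654 contigs the medians were -0.085, -0.12 and -0.14 in H. kanaliense and 0.55, -0.052 and -0.040 in H. betulifolium. On the TMM scale the typical abundant contig lay above its mean in H. betulifolium plant 1, while the 200 contigs lay near theirs, as their choice required. Without that plant the medians of the 8654 contigs lay between -0.039 and 0.071 and those of the 200 between -0.087 and 0.049.

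**Figure D3:**
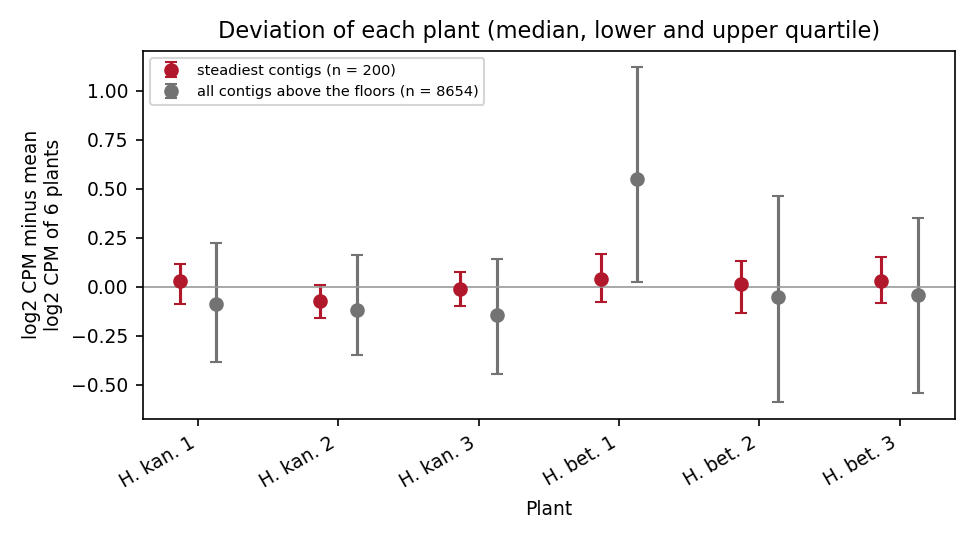
Log2 CPM of each plant minus the contig's mean log2 CPM over the 6 plants, for the 200 steadiest contigs (red) and all 8654 contigs above the floors (grey). Points are medians over contigs and bars run from the lower to the upper quartile. The grey median stands at 0.55 in H. betulifolium plant 1, and every red median lies between -0.074 and 0.041.

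The difference between the species was small in the 200 contigs, which a ratio of at most 1.41 fixes. Their fitted log2 fold change, H. kanaliense over H. betulifolium, ran from -0.39 to 0.33 with a median of -0.054. The absolute log2 fold change had a median of 0.11, against 0.55 over the 8654 contigs and 0.67 over all 44048 contigs tested. By edgeR's quasi-likelihood test 0 of the 200 passed an adjusted p of 0.05, where 0.885% of all tested contigs did. None of the 200 had an unadjusted p under 0.05, where 13.8% of tested contigs did, and 0 of the 200 were called by DESeq2, which called 7.55% of its tested contigs, or by limma-voom, which called 1.76%. The contigs were chosen on this contrast, so nothing is read from these counts. The standard errors of the log2 fold changes, 0.29 to 0.40, were wide beside the differences, and edgeR moderates each contig's dispersion with those of the other contigs.

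Some of the 200 still set the species apart without overlap. All plants of one species were above all plants of the other in 35 of the 200 (17.5%), where 23.8% of tested contigs did so. H. kanaliense lay above in 10 (background 14.6%) and H. betulifolium in 25 (background 9.15%). Among the 8654 contigs above the floors, 552 (6.38%) had H. kanaliense above and 1550 (17.9%) H. betulifolium. Without H. betulifolium plant 1, H. kanaliense lay above in 18 of the 200 (9%) and 1246 of the 8654 (14.4%), and H. betulifolium in 37 (18.5%) and 1871 (21.6%), where 2 plants overlap less readily than 3. The choice used the same values, and these shares are given as a description.

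The contigs farthest apart between the species show how small the largest differences were. Hkan_v1_contig_14743 was at 57.7, 54.4 and 60.2 CPM in H. kanaliense and 73.7, 75.2 and 76.1 CPM in H. betulifolium. The fitted log2 fold change was -0.39 ± 0.31 (SE), where the SE also draws on the spread of other contigs. The standard deviation of log2 CPM in this contig was 0.074 over the H. kanaliense plants and 0.023 over the H. betulifolium plants. Every H. betulifolium plant lay above every H. kanaliense plant. Hkan_v1_contig_14179 was at 22.6, 20.2 and 20.1 CPM against 28.0, 28.0 and 23.3 CPM, with a log2 fold change of -0.34 ± 0.30 (SE). It did not overlap either. Hkan_v1_contig_3470 was at 43.7, 44.9 and 40.2 CPM in H. kanaliense and 35.4, 33.3 and 33.8 CPM in H. betulifolium, and its log2 fold change was 0.33 ± 0.30 (SE). Hkan_v1_contig_401 was at 168, 164 and 156 CPM against 121, 132 and 142 CPM, a log2 fold change of 0.31 ± 0.36 (SE). In the last pair the H. kanaliense plants were the higher, again without overlap.

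A value that the choice did not use came from leaving out each plant, choosing the 200 steadiest contigs on the other 5 and reading the plant left out. The mean it was set against came from the plants used for the choice, so the deviation is only partly free of the choice. In the plant left out, the chosen contigs lay closer to their mean in the other 5 than contigs above the floors did, for each of the 6 plants. For H. kanaliense plants 1, 2 and 3 the median absolute deviation was 0.16, 0.18 and 0.13 (log2) in the chosen contigs, against 0.42, 0.38 and 0.44 in all contigs above the floors. The signed medians there were 0.032, -0.14 and -0.025 in the chosen contigs and -0.27, -0.28 and -0.31 in all contigs above the floors. The gap thus includes a common shift of all contigs. For H. betulifolium plants 1, 2 and 3 it was 0.55, 0.40 and 0.30, against 0.74, 0.63 and 0.54. Between 95.0% and 97.5% of the chosen contigs lay within 1.5-fold in an H. kanaliense plant left out, beside 60.9% to 67.6% of all. In H. betulifolium plants 1, 2 and 3 the shares were 53.0%, 67.5% and 80.0%, beside 41.3%, 47.2% and 53.3% of all contigs above the floors.

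Steadiness in 5 plants thus carried over to H. betulifolium plants 1 and 2 for only part of the contigs. In H. betulifolium plant 1, 44 of the 200 chosen contigs (22.0%) were over 2-fold from their mean in the other plants, beside 36.2% of all. In plant 2 the number was 28 (14.0%), beside 31.9% of all. In the other plants left out the number was 0 to 5, beside 14.3% to 27.8% of all contigs above the floors. In plant 1 the median signed deviation was 0.54 for the chosen contigs and 0.43 for all contigs above the floors with TMM scaling. With library totals, under which the floors were applied and the 200 contigs chosen anew, the medians were -0.39 and -0.61. The direction of the shift in plant 1 thus depends on the scaling. The distance between the quartiles, which a common shift does not move, was 0.78 for the chosen contigs and 1.29 for all with TMM.

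**Figure D4:**
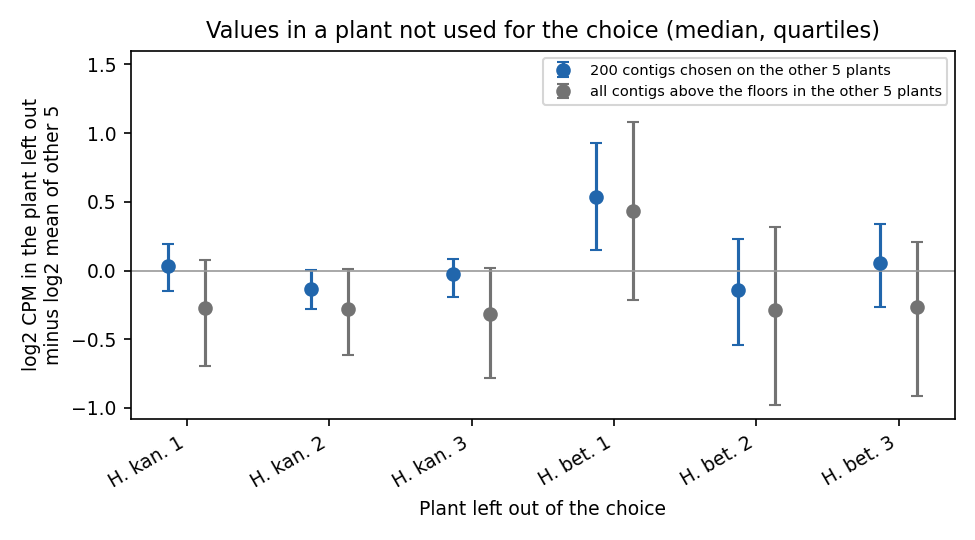
Log2 CPM in the plant left out minus the log2 mean CPM of the other 5 plants, for the 200 contigs chosen on those 5 plants (blue) and all contigs above the floors in them (grey). Points are medians over contigs and bars run from the lower to the upper quartile. The blue bars are narrower than the grey ones in each plant, and blue lies highest in H. betulifolium plant 1, with a median of 0.54.

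The choice was also made in each species alone and read in the other, an alternative added after the data were seen. The 200 steadiest contigs of H. kanaliense stayed within 1.06-fold there, and in H. betulifolium their ratio over the 3 plants had a median of 1.99, against 2.69 for all 8161 contigs above the floors. Of these 200, 46 (23.0%) stayed within 1.5-fold in H. betulifolium, against 13.6% of all. The 200 steadiest contigs of H. betulifolium stayed within 1.17-fold there, and their median ratio in H. kanaliense was 1.23, against 1.39 for all 9010 contigs above the floors. Of these, 160 (80.0%) stayed within 1.5-fold in H. kanaliense, against 60.6%. The lists of the species shared 9 contigs, 4.5% of each. Without H. betulifolium plant 1, with only 2 plants left in that species, the H. kanaliense list had a median ratio of 1.45 in H. betulifolium (1.71 for all) and 110 contigs (55%) within 1.5-fold (40% for all). The H. betulifolium list then had a median ratio of 1.296 in H. kanaliense (1.39 for all), with 144 (72%) within 1.5-fold (60.6% for all), and the lists shared 4 contigs. The list made on all 6 plants held 18 of the H. kanaliense list (9%) and 66 of the H. betulifolium list (33.0%).

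Which contigs counted as steady depended on how the libraries were scaled. Median-of-ratios scaling kept 160 of the 200 in its own list of 200 (80.0% of each), upper-quartile scaling 62 (31.0%) and library totals 0. The 0 was fixed by the choice. Contigs level after TMM take on the spread of the TMM factors, 0.546 to 1.26, when scaling is removed. The list with library totals ended at a ratio of 1.42. As shares of all reads, the 200 contigs together took 1.16%, 1.01% and 1.16% of the reads in H. kanaliense plants 1, 2 and 3 and 0.523%, 0.854% and 1.06% in H. betulifolium plants 1, 2 and 3. Without scaling their median ratio was 2.37, which likewise follows largely from the TMM factors, against 1.34 with TMM and median-of-ratios scaling alike. The contigs were thus level in TMM and median-of-ratios values and not as shares of reads. Without H. betulifolium plant 1, the plant with the TMM factor farthest from 1, 58 of the 200 (29.0%) were in the list chosen on the other 5, against 90 and 108 without H. betulifolium plants 2 and 3 and 159 to 165 without any 1 of the H. kanaliense plants.

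The list also depended on the measure of steadiness. The standard deviation of log2 CPM kept 176 of the 200 and the coefficient of variation 177. The geNorm measure M, taken from the selection of reference genes for quantitative PCR, is the mean over all other contigs of the standard deviation of their log2 ratio, and it needs no library scaling. Its 200 lowest contigs shared 8 with the list (4% of each). M sets each contig against all others above the floors, whose median stood at 0.55 in H. betulifolium plant 1 as given above. Without that plant, the 200 lowest by M shared 63 with the list. The cause of the small overlap was not tested. Over the 8654 contigs M ran from 0.78 with a median of 0.99, and for the 200 it ran from 0.79 to 0.91 with a median of 0.83. Computed among the 200 alone, M was 0.15 to 0.26 with a median of 0.21, and without H. betulifolium plant 1 it was 0.14 to 0.27 with a median of 0.20. The choice fixes that M among the 200 is small, since all lie within 1.41-fold on the TMM scale, so it tests nothing. It cannot be set against M over the 8654 contigs, which compares each with other contigs.

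Over the ratio, the standard deviation, the coefficient of variation and M together, Hkan_v1_contig_2442, Hkan_v1_contig_6790 and Hkan_v1_contig_9182 had the smallest sums of ranks among the 200. Hkan_v1_contig_2442 was the 55th by ratio, the 46th by standard deviation, the 49th by coefficient of variation and the 200th by M. It was at 79.5, 71.9 and 73.1 CPM in H. kanaliense and 88.8, 69.5 and 77.3 CPM in H. betulifolium, and it was in 16 of the 18 lists chosen under other settings, more than any other of the 200. At a mean of 76.7 CPM this contig could enter the list with a floor of 50 CPM, open to only 54 of the 200. The count of lists thus partly follows abundance. Both its extremes lay in H. betulifolium, in plants 1 and 2. Hkan_v1_contig_6790 was at 37.2, 34.5 and 38.9 CPM in H. kanaliense and 42.4, 37.5 and 35.4 CPM in H. betulifolium, and it was the 314th by M. Hkan_v1_contig_9182 was at 37.2, 37.6 and 42.2 CPM against 47.7, 41.4 and 39.2 CPM, and it was the 225th by M. All 3 contigs were highest in H. betulifolium plant 1, and the species overlapped in each. In all, 7 of the 200 were in the lists of all 3 other measures, and Hkan_v1_contig_2442 was among them while Hkan_v1_contig_6790 and Hkan_v1_contig_9182 were not.

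Over all 18 lists a contig of the 200 was found in a median of 10.5. One of these lists, with library totals, held none of the 200, and another, with a floor of 100 reads, held all of them. Both counts were fixed by how the lists were made. Through the 6 lists with a plant left out, 34 of the 200 were in every list and 9 in none.

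**Figure D5:**
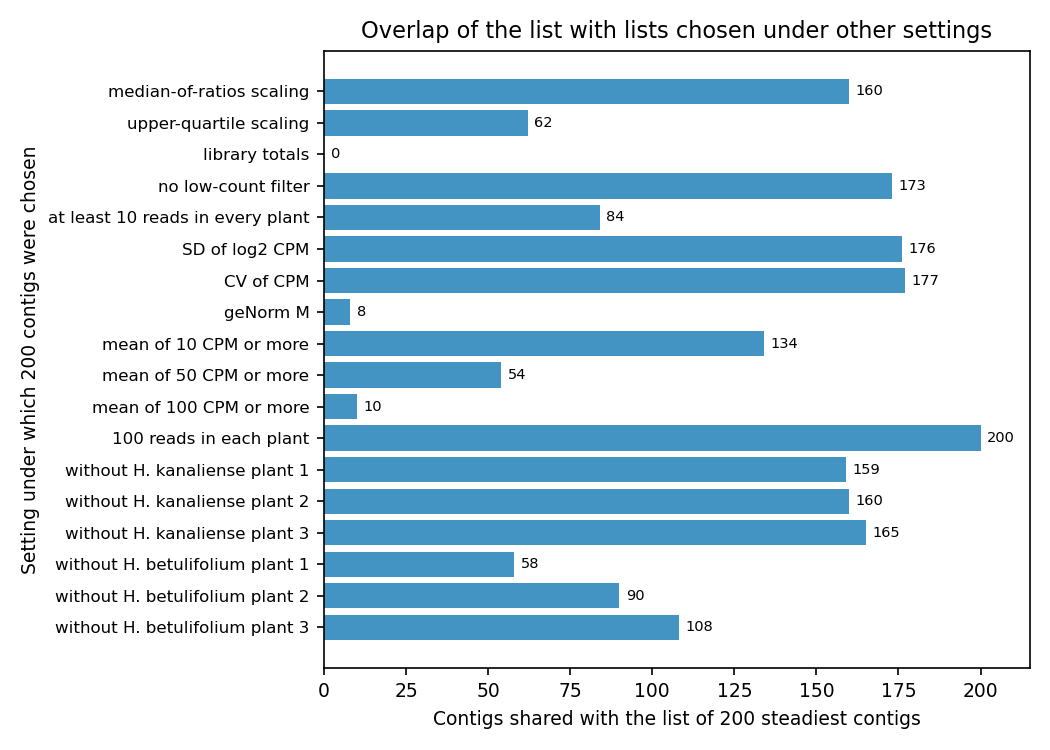
Number of the 200 steadiest contigs found again among the 200 chosen under each of 18 other settings (bars, with the count at the end). The bars run from 0 with library totals to 200 with a floor of 100 reads in each plant, both fixed by the choice. Without H. betulifolium plant 1 the bar stands at 58. Only 54 and 10 of the 200 contigs reach the floors of 50 and 100 CPM, so those bars could not be longer.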

How the data were processed

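Polyadenylated leaf RNA of 6 plants was sequenced, 1 plant per library, with a stranded kit per the labels' protocols. The authors deposited whole-number read counts per contig of an H. kanaliense transcriptome assembled de novo, per the file headers and the series' design text. How reads were aligned and counted, and what was done with reads matching more than 1 contig, is not given in the sources used here. Reads of alleles, isoforms or paralogs may therefore be split between contigs. Contig lengths and sequences were not analysed here.

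Species and plant numbers came from the sample titles. In edgeR 4.0.16 (R 4.3.3), low contigs were removed with filterByExpr at default settings (at least 10 reads in enough libraries and 15 in all), library totals were recomputed and scaled by TMM, and CPM were computed from the scaled totals. Steadiness was the highest over the lowest CPM. The species were compared by glmQLFit with robust estimation and glmQLFTest, with Benjamini-Hochberg adjustment over 44048 contigs at 0.05; the SE is the log2 fold change over the square root of F. Counting error is the root mean of the inverse read counts. For a plant left out, 0.5 reads were added to every count. The procedure was also run on simulated data, and no result here rests on that run. Alternatives used DESeq2 1.42.0 and limma 3.58.1, and figures matplotlib 3.10.9.

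No pair of libraries was alike within sampling noise (smallest reduced chi-square 110.3). Per the design text each library is a different plant, so p-values rest on the spread among these plants.

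Named contigs are the 6 with the smallest ratio, the 4 most abundant, the 3 with the smallest sum of ranks over 4 measures, the 2 on each side of the limit, the 2 with the highest and the 2 with the lowest log2 fold change, and the 2 at each end of the difference in spread between species. The contigs and lists were chosen with earlier results of these data known. Lists of reference genes and leaf markers could not be used, since the contigs have no names.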

Additional observations from a re-analysis of the deposited data

How the results depend on the processing

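Of the 200 contigs, lists chosen under other settings held 62 with upper-quartile scaling, 0 with library totals, 84 after a filter of 10 reads in every plant before scaling, 8 by geNorm M, 54 and 10 with floors of 50 and 100 CPM, and 58 to 165 with 1 plant left out. Their median ratio was 1.47 with upper-quartile scaling and 2.37 with library totals, it was 1.51 and 1.89 in lists chosen with floors of 50 and 100 CPM, and it was 1.204 to 1.32 in lists chosen on 5 plants, where fewer plants give a smaller ratio. The median standard deviation of log2 CPM in H. betulifolium was 0.26 with upper-quartile scaling and 0.52 with library totals. The overlap, ratio and standard deviation with library totals follow largely from the TMM factors and the choice. The median log2 fold change of the 200 was 0.44 with library totals, which moved that of all tested contigs to 0.48, and stayed between -0.12 and -0.029 with 1 plant left out. Of 250 log2 fold changes of named contigs under other fits, 206 moved by less than their spread within species, and the 44 others included all 25 with library totals and 13 without H. betulifolium plant 3.

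None of the 200 was called under any of the 15 alternative fits. They were chosen on the same contrast, so nothing is read from this. Fits that called 0 contigs in all could not have called any of them. Over all contigs edgeR called 390 (0.885%), DESeq2 3280 (7.55%) and limma-voom 775 (1.76%). With 10 reads in every plant edgeR called 179, and at a threshold of 0.01 it called 0. With 1 plant left out it called 700 without H. betulifolium plant 3 and 0 without any other plant. The fit with the replicate block called 0 contigs (4722 at an unadjusted p under 0.05). Deviations of plants with the same number correlated at -0.028, -0.13 and 0.22, and 1 plant of each species correlated best with its own number. With 3 plants per species these values cannot decide whether plants of the same number share more than that number. The cause of these changes was not tested.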
